A study of Homo sapiens with 19 samples.

Results

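The genes described here are the ATP-dependent chromatin remodellers of the CHD and ISWI families, namely CHD1, CHD2, CHD3, CHD4, CHD6, CHD7, CHD8 and CHD9 and the ISWI enzymes SMARCA1 and SMARCA5. They were chosen by name and matched by symbol to the Ensembl identifiers of the read count tables, which gave 10 genes of 44717 identifiers in all, and each of the 10 had counts in all 19 libraries and was tested in every comparison. The RNA came from the human melanoma line 501Mel and from Hermes 3A, a line of untransformed human melanocytes, and the question for these genes was whether they change, in either direction, when BRG1 or MITF is silenced.

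Cells of both lines carried a lentiviral short hairpin RNA (shRNA) against BRG1 (the product of SMARCA4), an shRNA against the melanocyte transcription factor MITF, or a scrambled control hairpin. In 501Mel, shBRG1 (n = 3) was compared with the control shSCR1 (n = 3), and shMITF (n = 2) with a separate control, shSCR2 (n = 2). In Hermes 3A, shBRG1 (n = 3) and shMITF (n = 3) shared a control, shSCR (n = 3). Each protein was targeted with 1 hairpin vector, and each kind of cell was represented by 1 line, so that line and cell type cannot be told apart. All cells had been infected and selected with puromycin, and Hermes 3A cells were grown with TPA, cholera toxin, stem cell factor and endothelin-1, which the labels do not name for 501Mel. The labels do not say whether replicates came from separate infections, so p-values measure the spread between these samples, which may be technical.

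Remodellers use ATP to slide, eject or exchange nucleosomes, and they fall into families by the domains beside a shared Snf2-type motor. BRG1 is the motor of SWI/SNF complexes, which open enhancers and promoters. ISWI enzymes space nucleosomes evenly: SMARCA5 (SNF2H) works in the ACF, CHRAC, WICH, RSF and NoRC complexes, and SMARCA1 (SNF2L) in the human NURF complex. CHD enzymes carry paired chromodomains: CHD1 and its close relative CHD2 act on transcribed genes, CHD3 and CHD4 are the alternative motors of the NuRD histone deacetylase complex, and CHD6 to CHD9 form a subgroup in which CHD7 binds enhancers and is needed for neural crest development, the source of melanocytes.

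Library depth ran from 29158502 to 78857900 counts. SMARCA4 was read at 178, 193 and 186 CPM (read counts scaled to a common library size) in 501Mel shSCR1 and at 37.4, 40.6 and 35.8 CPM in shBRG1, and at 244, 254 and 227 CPM in Hermes 3A shSCR and 44.4, 46.2 and 47.5 CPM in shBRG1. MITF was read at 1047 and 1186 CPM in shSCR2 and 494 and 546 CPM in shMITF, and at 1014, 1031 and 1119 CPM in Hermes 3A shSCR and 456, 719 and 544 CPM in shMITF. No knockdown group overlapped its control. SMARCA4 mRNA fell in both BRG1 knockdowns, by 2.36 ± 0.05 on the log2 scale (± SE throughout) in 501Mel and by 2.38 ± 0.05 in Hermes 3A, and MITF mRNA fell by 1.06 ± 0.14 and by 0.85 ± 0.19 in the MITF knockdowns of the same lines. MITF also fell after shBRG1, by 1.55 ± 0.06 in 501Mel and by 0.43 ± 0.04 in Hermes 3A. The 7 melanocyte markers examined (MITF, SOX10, PMEL, TYR, TYRP1, DCT and MLANA) had counts in every group. The lowest single marker lay at 477 CPM in 501Mel shSCR1. In Hermes 3A the lowest lay at only 22 CPM in shSCR, 2.29 CPM in shBRG1 and 3.27 CPM in shMITF. The summed level of the 7 markers was lower in each knockdown than in its control. In 501Mel it went from 30500 CPM in shSCR1 to 3250 in shBRG1 and from 22000 in shSCR2 to 11600 in shMITF. In Hermes 3A it went from 63800 in shSCR to 31200 in shBRG1 and 30300 in shMITF. Single genes weighed heavily in these sums: PMEL gave 19500 CPM in 501Mel shSCR1 and TYRP1 29400 CPM in Hermes 3A shSCR. The sums do not show whether each marker followed each knockdown. The part of these markers in the results below was not tested. The 5 fibroblast markers summed to 4.24 CPM in shSCR1 and 17.3 CPM in shBRG1 of 501Mel, and to 74.6, 144 and 148 CPM in Hermes 3A shSCR, shBRG1 and shMITF, where COL1A2 gave most of it. Endothelial (2 measured) and leukocyte (3 measured) markers summed to at most 1.33 CPM, and KRT10, the 1 keratinocyte marker measured, lay at 28.3 to 50.8 CPM. The 3 Hermes 3A shMITF libraries differed among themselves far more than other replicates (chi-square per degree of freedom of 106 to 157 between pairs, against 2.28 to 45.7 elsewhere).

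Levels are given as CPM scaled by the trimmed mean of M values (TMM) over all libraries, and, between genes, as CPM per kilobase of exon in the GENCODE 29 annotation. In 501Mel shSCR1 CHD4 was the most abundant member per kilobase, at 36.4 ± 0.11 (SD, n = 3), ahead of SMARCA5 at 20.1 ± 0.23 and CHD3 at 14.0 ± 0.15. The other 7 members followed between 10.7 ± 0.27 for CHD1 and 4.22 ± 0.10 for CHD9, and CHD6 (7.84 ± 0.08) and SMARCA1 (7.28 ± 0.53) in the middle of that order lay within about 1 SD of each other. In Hermes 3A shSCR the order opened differently, with CHD3 at 43.3 ± 0.35 per kilobase, CHD4 at 33.0 ± 0.20, SMARCA1 at 25.1 ± 2.13 and SMARCA5 at 23.6 ± 1.30. The levels of SMARCA1 and SMARCA5 overlapped within their SDs in these melanocytes, as did those of CHD8 (8.14 ± 0.07) and CHD2 (8.14 ± 0.41). Taking the longest transcript as the length in place of the union of exons kept CHD4 first in 501Mel at 69.3 and put it above CHD3 in Hermes 3A (62.8 against 57.4), so the order of CHD3 and CHD4 in melanocytes depends on the length used. The level of CHD8 depends on it too. With the longest transcript CHD8 read 20.1 against 14.75 for CHD2 in Hermes 3A shSCR, and in 501Mel shSCR1 it moved from rank 9 to rank 5 (16.2).

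**Figure D1:**
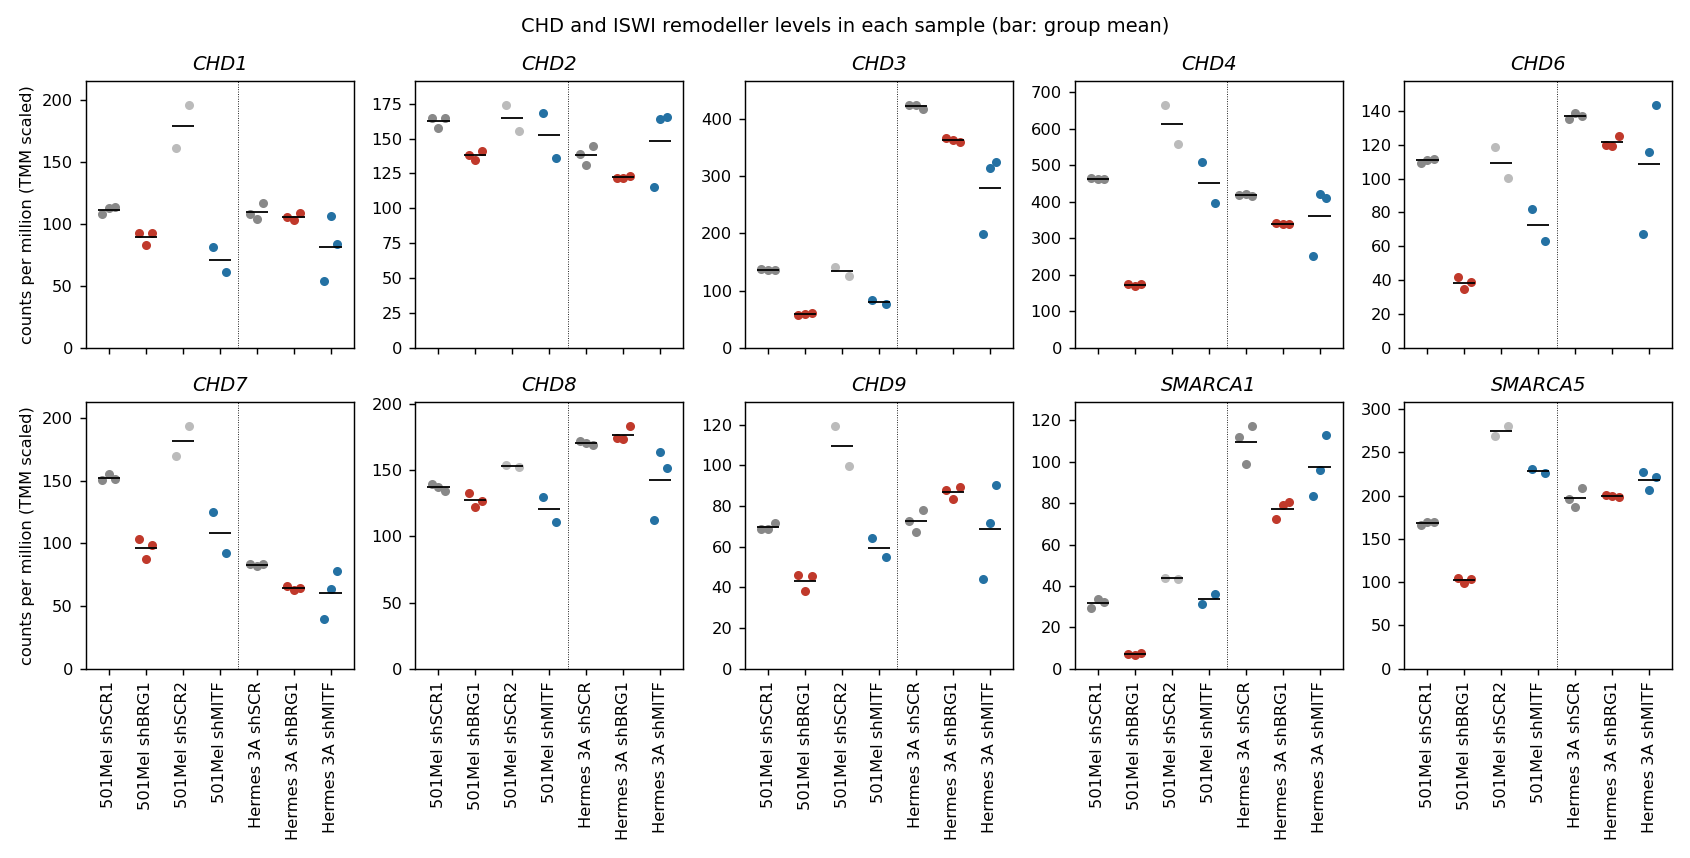
Level of each remodeller in every library, in CPM scaled by TMM, on axes that start at 0. Points are libraries, horizontal bars are group means, and the dotted line separates 501Mel from Hermes 3A. In 501Mel the shBRG1 libraries of CHD4 lie at 170 to 175 CPM against 462 to 464 CPM in shSCR1, and the Hermes 3A shMITF libraries spread widely for most genes.

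CHD3 and SMARCA1 separated the lines most clearly. CHD3, a NuRD motor, was read at 139, 136 and 136 CPM in 501Mel shSCR1 and at 424, 424 and 418 CPM in Hermes 3A shSCR. These values do not approach each other, and the fitted difference (501Mel minus Hermes 3A) was -1.63 ± 0.04 on the log2 scale (edgeR quasi-likelihood test, adjusted p = 7.41e-21). SMARCA1, the NURF motor, stood at 29.2, 33.7 and 32.5 CPM in 501Mel against 112, 99.1 and 117 CPM in Hermes 3A, a difference of -1.79 ± 0.06 (adjusted p = 1.3e-18). Both were called, meaning an adjusted p under 0.05 with a log2 change over 1 in either direction, and so were 41.4% of all 18731 genes tested between the lines.

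CHD7, the enhancer-binding member, was the one with the largest excess in melanoma cells. Its levels were 151, 155 and 151 CPM in 501Mel and 83.2, 82.2 and 83.4 CPM in Hermes 3A, a difference of 0.88 ± 0.05 (adjusted p = 4.88e-15). CHD2 and CHD4 were higher by only 0.23 ± 0.05 and 0.14 ± 0.04, and CHD6, CHD8 and SMARCA5 were lower, at -0.31 ± 0.04, -0.32 ± 0.04 and -0.23 ± 0.05. CHD1 (0.02, 95% interval -0.08 to 0.12) and CHD9 (-0.07, -0.18 to 0.04) did not pass the test. In all, 3 members passed an adjusted p of 0.05 as higher in 501Mel, where 41.4% of all genes did, and 5 as lower, where 40.2% did. CHD7 was also called with library sizes alone (1.13) and with shSCR2 as the 501Mel control (1.12). The small differences rest on the scaling and on the control: the median gene lay at 0.04 under TMM and at 0.30 with library sizes alone, which put CHD9 at 0.19 and SMARCA5 at 0.03, and with shSCR2 as the 501Mel control CHD1, CHD9 and SMARCA5 read 0.69, 0.57 and 0.46.

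Where these genes lie in the genome is given here on GRCh38, which is not the hg19 build the reads were aligned to. CHD3 spans chr17:7884806-7912760, CHD4 chr12:6570082-6614524, CHD6 chr20:41402101-41618494 and SMARCA1 chrX:129446501-129523500, and the others lie on chromosomes 5 (CHD1), 15 (CHD2), 8 (CHD7), 14 (CHD8), 16 (CHD9) and 4 (SMARCA5). All are protein coding. In GENCODE 29 the exons of CHD1, CHD3, CHD6, CHD7 and SMARCA1 are shared with no other gene. CHD4 shares 46.9% of its exonic bases with AC006064.6 on the same strand and 10.2% with an antisense gene, and CHD2 and SMARCA5 share 10.2% and 13.5% of theirs with others. The counting rules for shared reads are not given in the sources used here, so the counts of these 3 genes are less certain.

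Promoter windows from RefSeq (GRCh38.p14; 250 bases before each annotated start and 50 after it) were found for 8 of the 10 genes, with none for CHD6 or CHD7. Stretches were printed only where at most 30 bases lay in GENCODE exons, which left out CHD4, whose 250 bases are all exonic. SMARCA1 and CHD3 were among the members that fell most in 501Mel shBRG1, and CHD9 was the member that rose in Hermes 3A shBRG1. In 501Mel CHD9 fell after both shBRG1 (-0.75) and shMITF (-0.84). Each line is the 250 bases before the start, 5′ to 3′, and capitals mark matches on either strand to letters bound by MITF (the E-boxes CACGTG and CATGTG), SOX factors (ACAAAG), AP-2 factors (GCCNNNGGC) or YY1 (CCATNTT).
CHD3, chr17:7888539-7888788, plus strand: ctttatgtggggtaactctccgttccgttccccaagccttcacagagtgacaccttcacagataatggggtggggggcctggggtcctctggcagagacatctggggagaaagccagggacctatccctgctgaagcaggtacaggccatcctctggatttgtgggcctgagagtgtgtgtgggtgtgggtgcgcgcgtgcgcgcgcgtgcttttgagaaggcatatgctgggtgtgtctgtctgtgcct
SMARCA1, chrX:129523491-129523740, minus strand: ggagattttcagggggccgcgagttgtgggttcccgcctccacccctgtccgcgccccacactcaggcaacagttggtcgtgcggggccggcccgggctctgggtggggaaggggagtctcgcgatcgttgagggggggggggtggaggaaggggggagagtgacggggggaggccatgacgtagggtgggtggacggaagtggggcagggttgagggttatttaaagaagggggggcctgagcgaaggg
CHD9, chr16:53054741-53054990, plus strand: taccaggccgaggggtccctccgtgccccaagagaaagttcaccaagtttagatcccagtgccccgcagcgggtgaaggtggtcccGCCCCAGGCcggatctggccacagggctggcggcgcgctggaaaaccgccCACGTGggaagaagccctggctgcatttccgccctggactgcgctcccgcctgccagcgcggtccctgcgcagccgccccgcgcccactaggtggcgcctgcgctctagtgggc
The stretch shown for CHD9 was the only member window with an E-box, CACGTG, a hexamer found in 7.26% of all 35116 windows (either E-box in 17.6%), and it also held the AP-2 letters, which 23.2% of windows hold. No searched letters stood in the stretches shown for CHD3 and SMARCA1, although a SOX match (16.1% of windows) lay just after the CHD3 start. The window of CHD4, which fell more than CHD3, is not shown and held the AP-2 letters. The CHD3 stretch lies inside the GENCODE gene but outside its exons, so other starts of that gene were not searched, and CHD9 has 4 entries, of which the first is printed. Another CHD9 stretch, chr16:53207715-53207964, also met the rule on exonic bases and is not shown. It held the YY1 letters, which 15.6% of windows hold, and no E-box.

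Loss of BRG1 in 501Mel was accompanied by lower mRNA of all 10 remodellers, by between 0.17 and 2.24 on the log2 scale with TMM scaling, while with library sizes alone CHD2 and CHD8 lay above 0. Shared values between silenced and control libraries were seen in none of the 10 genes. SMARCA1, CHD6, CHD4 and CHD3 were called. The other 6 passed an adjusted p of 0.05 as lower without reaching a log2 change of 1. The silenced cells changed very widely, so these counts must be read against all 20514 genes tested: 39.1% were called, 39.1% passed as lower and 41.2% passed as higher. The median of the 10 members was -0.77, against 0.05 for all genes, and the median size of change was 0.77 for the members and 0.76 for all genes. In bulk RNA, fewer cells of a kind and less RNA per cell cannot be told apart.

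SMARCA1, the NURF ATPase, showed the largest fall. It was read at 29.2, 33.7 and 32.5 CPM in shSCR1 and at 6.93, 6.59 and 7.56 CPM in shBRG1, a fall of 78.9% (-2.24 ± 0.07, adjusted p = 2.76e-18). The groups do not overlap. Its paralog SMARCA5 fell less, from 166, 170 and 170 CPM to 105, 99.6 and 103 CPM (-0.78 ± 0.04, adjusted p = 1.06e-13).

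The NuRD motors fell together. CHD4, the most abundant member in these cells, went from 464, 462 and 462 CPM to 175, 170 and 174 CPM, a change of -1.49 ± 0.04 (adjusted p = 4.92e-19). CHD3 went from 139, 136 and 136 CPM to 57.7, 59.4 and 61.1 CPM (-1.27 ± 0.05, adjusted p = 1.84e-17). Silenced and control libraries are far apart in both genes. CHD5, the NuRD motor of neurons, had only 8 to 32 counts per library here, at 0.138 to 0.644 CPM (-1.48 ± 0.31, adjusted p = 0.000128), and after shMITF in 501Mel it read 1.58 ± 0.37 (adjusted p = 0.0167).

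Within the CHD6 to CHD9 subgroup the falls were uneven. CHD6, a large enzyme of limited known function, went from 109, 111 and 112 CPM to 41.8, 34.5 and 38.9 CPM (-1.59 ± 0.06, adjusted p = 1.34e-17). CHD7 went from 151, 155 and 151 CPM to 103, 87.7 and 98.5 CPM (-0.73 ± 0.05, adjusted p = 1e-11). CHD9 fell by 0.75 ± 0.06. CHD8, known as a regulator of β-catenin targets, showed the smallest change of all members, from 140, 137 and 134 CPM to 133, 122 and 127 CPM (-0.17 ± 0.05, adjusted p = 0.00156). CHD1 (-0.39 ± 0.05) and CHD2 (-0.30 ± 0.05), the pair that acts on transcribed genes, lay near CHD8 at the lower end.

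**Figure D2:**
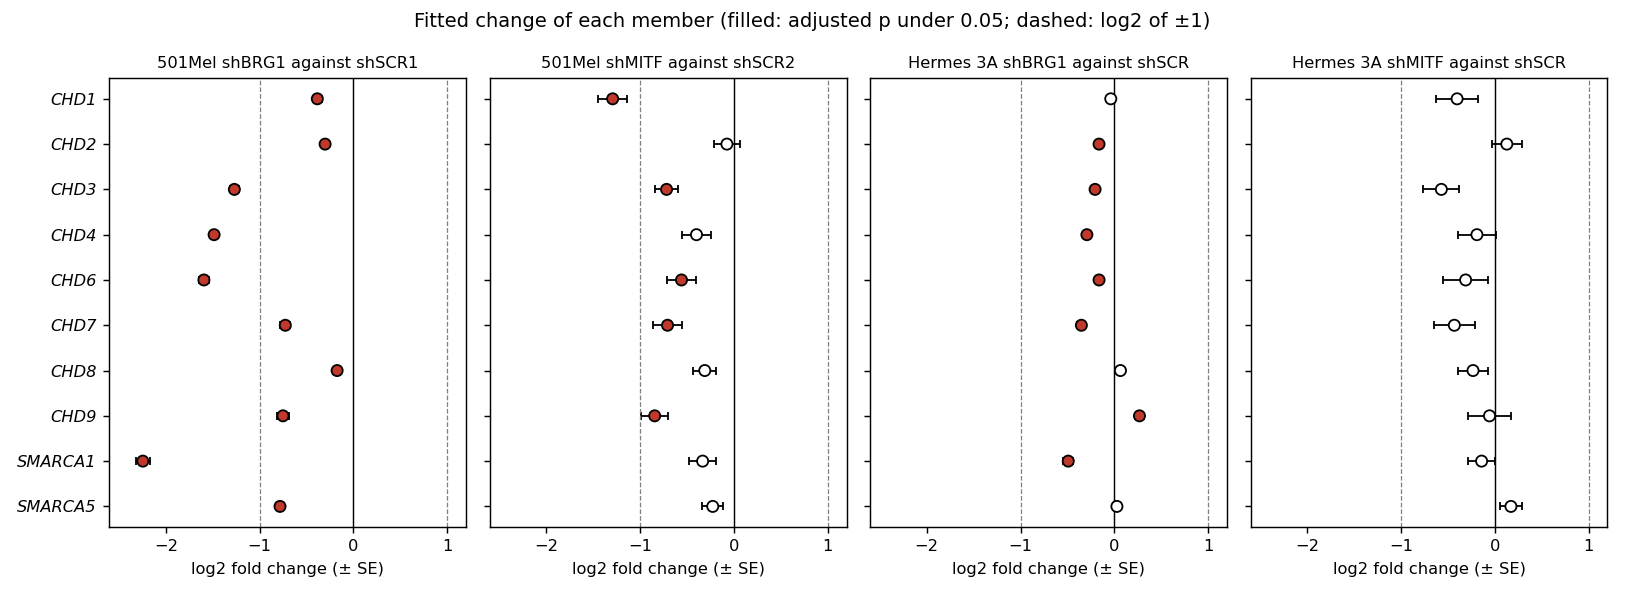
Fitted log2 fold change of each member in the 4 knockdown comparisons, with bars of 1 SE, filled points for an adjusted p under 0.05 and dashed lines at log2 changes of 1 in either direction. All 10 points of the 501Mel shBRG1 panel lie left of 0, from -0.17 for CHD8 to -2.24 for SMARCA1, with TMM scaling, while the Hermes 3A points lie between -0.57 and 0.27.

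The direction of the smallest falls depended on how libraries were scaled. TMM factors were 1.25 to 1.27 in shBRG1 and 1.03 to 1.05 in shSCR1, and with library sizes alone the median of all genes moved from 0.05 to 0.40. On that scale CHD8 read 0.17 ± 0.05 (adjusted p = 0.00156, now as higher), CHD2 0.05 ± 0.04 and CHD1 -0.04 ± 0.05, and CHD3 fell short of the call at -0.92. Relative to the median gene all 10 members were lower, by 0.23 to 2.30 with TMM and with library sizes. A change of scaling moves all genes by about the same amount, so this distance cannot test the scaling. It did depend on the filter: once genes under 10 counts in any library were dropped, the nearest member read -0.063 against the median. The share of called genes that were higher also moved, from 55.5% to 72.1%. SMARCA1, CHD6 and CHD4 were called under each of the alternatives tried.

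**Figure D3:**
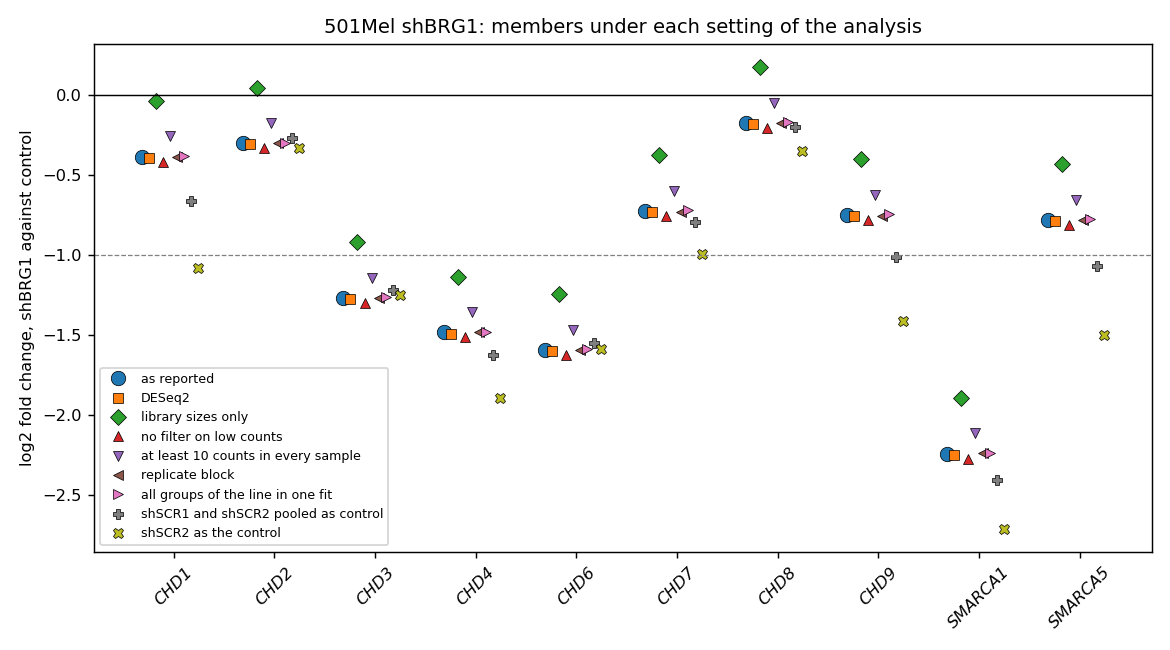
Log2 fold change of each member after shBRG1 in 501Mel under the reported analysis and 8 other settings, 1 symbol per setting, with a dashed line at -1. Library sizes alone shift all genes upwards, which carries CHD2 to 0.05 and CHD8 to 0.17, and the use of shSCR2 as control shifts most of them downwards.

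The scramble groups of 501Mel themselves differed in these genes. SMARCA5 was read at 269 and 280 CPM in shSCR2 against 166, 170 and 170 CPM in shSCR1 (0.72 ± 0.06, adjusted p = 6.83e-06), and CHD1 at 162 and 196 CPM against 108, 113 and 114 CPM (0.69 ± 0.08). CHD9 (0.66 ± 0.09), SMARCA1 (0.47 ± 0.08), CHD4 (0.42 ± 0.08), CHD7 (0.26 ± 0.07) and CHD8 (0.17 ± 0.06) were higher in shSCR2 too, whereas CHD2 (0.03, 95% interval -0.14 to 0.20), CHD3 (-0.02, -0.18 to 0.15) and CHD6 (-0.01, -0.20 to 0.18) did not pass. In all, 7 members passed as higher against 35.3% of 19056 genes, and none passed as lower against 34.5% (edgeR; 0 also by DESeq2 and at an unadjusted p under 0.05). None was called, by edgeR or DESeq2 or at an unadjusted p under 0.05, against 33.0% of all genes. SMARCA4 itself was 0.83 ± 0.06 higher and MITF 0.97 ± 0.09 higher in shSCR2. Whether the control hairpin or the experiment differed cannot be told apart from the labels. Read against shSCR2 in place of shSCR1, an alternative chosen after seeing the data, all 10 members were lower after shBRG1 and 7 were called. In that fit 11200 of all 21475 genes were called and 7967 passed as lower.

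In Hermes 3A the same loss of BRG1 came with smaller changes in these genes and in both directions. CHD2, CHD3, CHD4, CHD6, CHD7 and SMARCA1 fell, CHD9 rose, and CHD1, CHD8 and SMARCA5 did not pass the test. The 6 that fell and the 1 that rose stand against 28.6% and 28.2% of 17222 genes. None was called, by edgeR or DESeq2 or at an unadjusted p under 0.05, against 9.26% of all genes. The median of the members was -0.16, against 0.01 for all genes.

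SMARCA1 again fell most, from 112, 99.1 and 117 CPM to 72.2, 79.0 and 80.4 CPM (-0.49 ± 0.05, adjusted p = 3.59e-09). CHD7 went from 83.2, 82.2 and 83.4 CPM to 66.3, 62.6 and 64.4 CPM (-0.35 ± 0.04, adjusted p = 6.62e-08). The groups of both genes are separate. CHD4 fell by 0.29 ± 0.04 and CHD3 by 0.21 ± 0.04, while CHD2 and CHD6 fell by 0.16 ± 0.04 each. CHD9, a poorly characterised relative of CHD7, was the only member that rose, from 72.8, 67.2 and 78.2 CPM to 88.0, 83.3 and 89.4 CPM (0.27 ± 0.05, adjusted p = 3.27e-05).

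The intervals of the other 3 were narrow: -0.13 to 0.05 for CHD1, -0.02 to 0.15 for CHD8 and -0.06 to 0.11 for SMARCA5. With all 3 Hermes 3A groups in 1 fit, over 17652 genes, only SMARCA1 passed. With library sizes alone the median gene moved from 0.01 to 0.11 and CHD8 (0.17) and SMARCA5 (0.13) joined CHD9 as higher, CHD2 (-0.06) and CHD6 (-0.06) no longer passed, and the share of called genes that were higher went from 62.5% to 72.5%.

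SMARCA2 (BRM), which can replace BRG1 as the motor of SWI/SNF, is the closest relative of the lost enzyme and was measured beside these families. It fell from 40.8, 44.2 and 44.9 CPM to 26.3, 26.2 and 25.3 CPM in 501Mel (-0.80 ± 0.06, adjusted p = 3.3e-12) and by 0.11 ± 0.04 in Hermes 3A (adjusted p = 0.0315). Scaled by library sizes, SMARCA2 read -0.45 ± 0.05 in 501Mel and did not pass in Hermes 3A (-0.0078 ± 0.04, adjusted p = 0.894). CHD1L, a remodeller that shares the CHD name without the chromodomains, did not pass in 501Mel (0.09, 95% interval -0.02 to 0.19), where library sizes alone gave a rise of 0.44 ± 0.05 (adjusted p = 2.62e-08), and fell by 0.25 ± 0.05 in Hermes 3A. Among the 10 members and SMARCA2 the only rise after shBRG1 under TMM scaling was that of CHD9 in Hermes 3A, and by library sizes CHD8 rose in both lines and SMARCA5 in Hermes 3A as well.

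The shBRG1 effects of the lines were compared directly, as the effect in 501Mel minus that in Hermes 3A, in 1 fit of 12 libraries. All 10 differences passed and were negative, where 33.1% of 21697 genes passed as lower and 24.8% as higher, and 5 were called, where 26.9% were. SMARCA1 differed most (-1.78 ± 0.09, adjusted p = 1.18e-18), followed by CHD6 (-1.46 ± 0.07), CHD4 (-1.22 ± 0.06), CHD3 (-1.09 ± 0.06) and CHD9 (-1.05 ± 0.08), the last of which moved in opposite directions in the lines. SMARCA5 followed at -0.84 ± 0.06. The SMARCA4 effect itself did not differ detectably (-0.01 ± 0.07, adjusted p = 0.964), whereas the effect on MITF was larger in 501Mel by 1.15 ± 0.08. With library sizes alone the median gene lay at 0.25, 6 members passed as lower, 2 (CHD6 and SMARCA1) were called and CHD2 and CHD8 read 0.11 and 0.01, and without the first shBRG1 library of 501Mel 3 were called. DESeq2 passed 9 as lower, without CHD2 (-0.09), and called 4, without CHD9 (-0.97).

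MITF silencing in 501Mel left all 10 fitted values below 0, and CHD1, CHD9, CHD3, CHD7 and CHD6 passed as lower. CHD1 was the only one called. Among all 17701 genes tested 8.99% were called, 10.5% passed as lower and 10.0% as higher. The median of the members was -0.48, against 0.01 for all genes, and none passed as higher (0 also by DESeq2 and at an unadjusted p under 0.05).

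CHD1 was read at 162 and 196 CPM in shSCR2 and at 81.0 and 61.4 CPM in shMITF (-1.29 ± 0.15, adjusted p = 0.00112). CHD9 went from 119 and 99.7 CPM to 64.0 and 54.8 CPM (-0.84 ± 0.14, adjusted p = 0.00419), and CHD3 from 142 and 126 CPM to 82.9 and 75.9 CPM (-0.72 ± 0.13). CHD7 (-0.71 ± 0.15) and CHD6 (-0.56 ± 0.15) fell as well. The pairs of libraries were separate in each of these genes.

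CHD4 (-0.40, 95% interval -0.74 to -0.06), CHD8 (-0.31, -0.58 to -0.04), SMARCA1 (-0.33 ± 0.15) and SMARCA5 (-0.23, -0.48 to 0.03) missed an adjusted p of 0.05, and CHD2 (-0.07, -0.38 to 0.23) lay nearest to 0. Much of this result turned on the control group. Against shSCR1, a control also tried after seeing the data, no member was called and SMARCA5 read 0.46 ± 0.06 (adjusted p = 0.000175, as higher), and against both scramble groups pooled only CHD3 passed (-0.75 ± 0.13).

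After shMITF in Hermes 3A no member passed an adjusted p of 0.05 in either direction with edgeR, where 9.15% of 16508 genes passed as lower, 7.85% as higher and 7.39% were called. At an unadjusted p under 0.05 there was 1 gene, CHD3, which DESeq2 also passed as lower. CHD3 was read at 199, 314 and 325 CPM against 424, 424 and 418 CPM in shSCR, so all silenced libraries were lower, with a fitted value of -0.57 (95% interval -1.01 to -0.13, adjusted p = 0.0769). The first shMITF library was the lowest of its group for 9 of the 10 members. Without it CHD3 passed at -0.39 (adjusted p = 0.0192). The intervals were wide, for example -0.86 to 0.24 for CHD6 and -0.91 to 0.11 for CHD1, and SMARCA5 had the highest fitted value at 0.17 (-0.09 to 0.44).

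For shMITF the difference between the lines was not detectable: no member passed with edgeR or DESeq2, and 3 (CHD1, CHD9 and SMARCA5) did at an unadjusted p under 0.05, where 0.830% of 19284 genes passed as lower, 2.16% as higher and 2.64% were called. CHD1 had the largest difference, -0.90 with an interval of -1.60 to -0.19. Without the first Hermes 3A shMITF library 2 members, CHD1 and CHD9, were called.

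The knockdowns were also set against each other. In 501Mel, where each has its own control, the shBRG1 effect was lower than the shMITF effect for SMARCA1 (-1.88 ± 0.14), CHD4 (-1.06 ± 0.13), CHD6 (-1.01 ± 0.15), CHD3 (-0.53 ± 0.10) and SMARCA5 (-0.53 ± 0.09), and higher, that is less negative, for CHD1 (0.93 ± 0.15). The first 3 of these were called, where 27.3% of 22255 genes were, while 26.8% of genes passed as lower and 21.2% as higher. CHD7 (0.01, 95% interval -0.32 to 0.33), CHD2, CHD8 and CHD9 did not pass. These values carry the difference between the scramble groups, and without the second shSCR2 library only SMARCA1 was called. DESeq2 called 2, without CHD6 (-0.96). In Hermes 3A, shBRG1 and shMITF libraries compared directly differed in no member (edgeR and DESeq2; 1, SMARCA1, at an unadjusted p under 0.05), where 6.90% of 16927 genes passed as lower, 7.36% as higher and 5.81% were called, and without the first shMITF library 3 passed as lower.

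The balance between paralogs moved with these changes. SMARCA1 made up 26.6% ± 1.22 (SD, n = 3) of the summed ISWI level per kilobase in 501Mel shSCR1 and 11.6% ± 0.61 after shBRG1. In Hermes 3A the share went from 51.5% ± 0.95 to 42.6% ± 1.59. The libraries of control and silenced cells do not overlap in either line. The share of CHD3 in the summed CHD3 and CHD4 level was 27.8% ± 0.15 and 30.9% ± 0.73 in the same 501Mel groups. In Hermes 3A it was 56.8% ± 0.11 and 58.2% ± 0.13. These were small shifts, and the groups again do not overlap in either line. In shSCR2 of 501Mel, however, the CHD3 share was 22.3% ± 0.69 (n = 2), further from shSCR1 than the shBRG1 share was. After shMITF it was 18.8% ± 1.75 in 501Mel (n = 2) and 50.3% ± 0.83 in Hermes 3A (n = 3). The SMARCA1 share in shSCR2 was 23.4% ± 0.55. Shares do not depend on the scaling of libraries, but their size depends on the gene length used. With the longest transcript CHD3 read 57.4 against 62.8 for CHD4 in Hermes 3A shSCR, and 18.6 against 69.35 in 501Mel shSCR1. Summed over the 10 members, the level per kilobase was 126 ± 0.73 in 501Mel shSCR1, 67.3 ± 2.44 after shBRG1, 171 ± 4.18 in Hermes 3A shSCR and 149 ± 1.04 after shBRG1. The other 501Mel control, shSCR2, stood at 164 ± 5.39 (SD, n = 2), and by library sizes 501Mel went from 130.3 in shSCR1 to 85.0 in shBRG1.

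**Figure D4:**
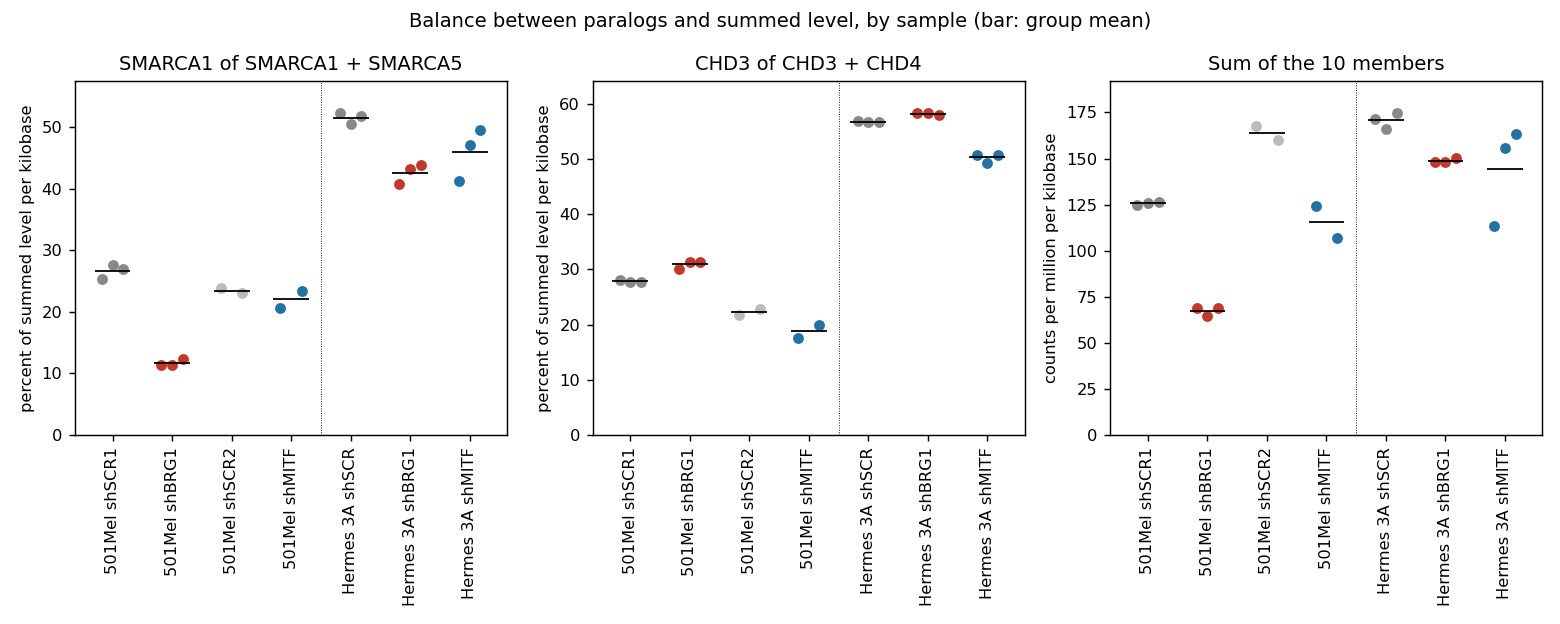
Share of SMARCA1 in the ISWI level, share of CHD3 in the CHD3 and CHD4 level, and summed level of the 10 members per kilobase of exon, in every library, with bars for group means and axes from 0. The SMARCA1 share falls from 26.6% to 11.6% with shBRG1 in 501Mel, while the CHD3 share is 27.8% and 30.9% in those groups and at least 49.4% in all Hermes 3A libraries.

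The subunits that partner with these motors changed in both directions in 501Mel shBRG1. Of 12 ISWI partners, 10 passed as lower and 2 as higher, with a median of -0.39. Over all 20514 genes tested, 39.1% passed as lower, 41.2% as higher and 39.1% were called. Those called were BAZ2B (-1.63 ± 0.07), a bromodomain partner of ISWI, and RBBP7 (-1.21 ± 0.05), a histone-binding protein shared with NuRD. POLE3 (0.93 ± 0.05) and CHRAC1 (0.69 ± 0.07), the histone-fold pair of CHRAC, rose. BPTF, the large NURF subunit, is named after its values were seen: it fell by 0.96 ± 0.05. By library sizes alone 6 ISWI partners passed as lower and 6 as higher, with a median of -0.04. RBBP7 (-0.87) was no longer called, and POLE3 (1.28) and CHRAC1 (1.04) were called as higher. On that scale 5838 of all 20514 genes passed as lower and 11302 as higher.

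Of 10 NuRD partners, 5 passed as higher, 3 as lower and 2 did not pass, where 41.2% of all genes passed as higher and 39.1% as lower. The list median was 0.17. MTA3 (-1.07 ± 0.05) was the one called, and GATAD2B fell by 0.76 ± 0.05, whereas its paralog GATAD2A (0.90 ± 0.05) and the methyl-DNA binder MBD2 (0.50 ± 0.05) rose. On the scale of library sizes 7 passed as higher and 2, MTA3 and GATAD2B, as lower, MTA3 (-0.72) was no longer called, and GATAD2A (1.24) was called as higher. Of 16 other Snf2-type ATPases, 8 passed as lower, 3 as higher and 5 did not, with a median of -0.14, against the same shares of all genes. ATRX (-1.60 ± 0.06), which deposits histone variants at repeats, and the replication fork enzyme SMARCAL1 (-1.09 ± 0.06) were called, and EP400 (0.56 ± 0.05) and SRCAP (0.44 ± 0.05), motors of histone variant exchange, rose. Scaled by library sizes only, the split of these 16 turned round, with 5 lower and 9 higher, and SMARCAL1 (-0.74) was no longer called while ATRX (-1.25) was.

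**Figure D5:**
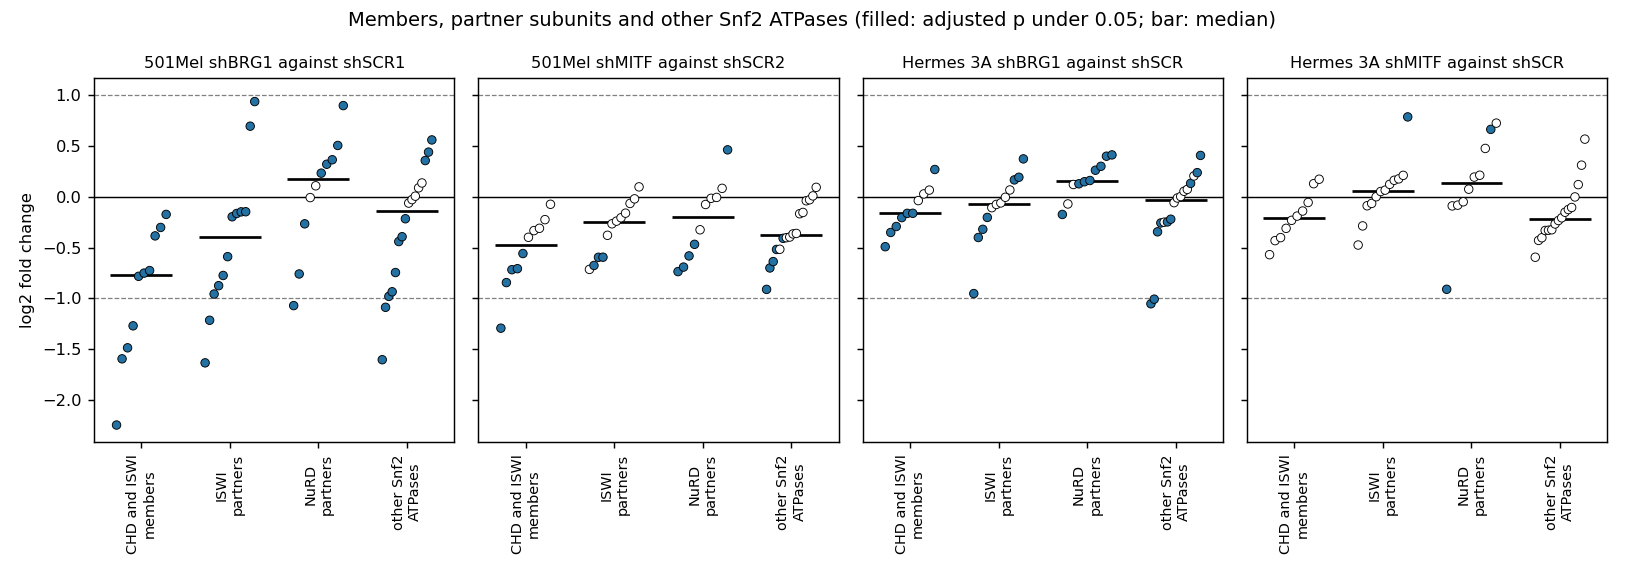
Log2 fold changes of the 10 members, 12 ISWI partners, 10 NuRD partners and 16 other Snf2-type ATPases in the 4 knockdown comparisons, with filled points for an adjusted p under 0.05, bars for the median of each list and dashed lines at 1 and -1. In 501Mel shBRG1 the medians are -0.77, -0.39, 0.17 and -0.14.

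In Hermes 3A shBRG1, 28.6% of all 17222 genes passed as lower, 28.2% as higher and 9.26% were called. Against these shares, 4 ISWI partners passed as lower and 3 as higher. BAZ1A, the ACF1 subunit of ACF and CHRAC, fell by 0.95 ± 0.05 and RBBP7 by 0.40 ± 0.04, while CHRAC1 (0.37 ± 0.08) and HMGXB4 (0.19 ± 0.06) rose. Among NuRD partners 7 passed as higher, led by CDK2AP1 (0.41 ± 0.04) and MTA1 (0.40 ± 0.05), and only the deacetylase HDAC1 fell (-0.17 ± 0.04), a fall that did not pass with library sizes alone (-0.07). Of the other Snf2-type ATPases 6 passed as lower and 3 as higher. RAD54L (-1.05 ± 0.09), a recombination enzyme, and HELLS (-1.01 ± 0.07), a remodeller tied to DNA methylation, were called with TMM but not by library sizes (-0.95 and -0.90), and SHPRH (0.41 ± 0.07) and RAD54L2 (0.24 ± 0.06) had the largest rises. By library sizes the splits turned round, to 5 lower and 6 higher for these ATPases and 3 lower and 4 higher for the ISWI partners. On that scale 3678 of all 17222 genes passed as lower and 6392 as higher.

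After shMITF in 501Mel the changes of partners and other ATPases that passed were all under 1 in size. Over all 17701 genes, 10.5% passed as lower and 10.0% as higher. POLE3 (-0.68 ± 0.12) and HMGXB4 (-0.60 ± 0.14) fell most among the 3 ISWI partners that passed, all as lower. Of NuRD partners 4 passed as lower, led by MBD2 (-0.74 ± 0.14) and HDAC2 (-0.69 ± 0.12), and MBD3 rose by 0.46 ± 0.12. RAD54L2 (-0.91 ± 0.17) and RAD54L (-0.70 ± 0.14) led the 5 other ATPases that passed as lower, against 3 by library sizes. The scramble groups differed in these lists too, with medians of 0.64, 0.74 and 0.56 for shSCR2 against shSCR1. There 11 of 12 ISWI partners, 6 of 10 NuRD partners and 13 of 16 other ATPases passed as higher, against 35.3% of all genes. Whether the shMITF values carry that difference was not tested. After shMITF in Hermes 3A, CHRAC1 (0.78 ± 0.16) and MBD3 (0.66 ± 0.12) rose and GATAD2A fell by 0.91 ± 0.19. No other gene of the 3 lists passed, where 9.15% of all 16508 genes passed as lower and 7.85% as higher.

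Genes with the most similar pattern were sought for the 5 members called in any knockdown, by the root mean square difference of log2 fold changes over the 4 knockdown comparisons, among 10705 genes with at least 100 counts on average. The closest to CHD3 were AAK1 (0.06), SNUPN (0.09) and WASHC5 (0.10), and to CHD4 they were SDHB (0.04), AGAP3 (0.06) and ABCB9 (0.06). CHD6 was closest to FAHD1 (0.05), TMEM256 (0.08) and GANAB (0.09). SMARCA1 had PCK2 (0.08), CCDC136 (0.12) and ATP6V1H (0.13), and CHD1 had ABHD13 (0.06), NDUFV1-DT (0.10) and FKBP4 (0.16). The Hermes 3A comparisons share control libraries, so the 4 values behind each distance are not independent, and nothing on shared function or control follows from them.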

How the data were processed

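Total RNA was depleted of ribosomal RNA, normalized with a duplex-specific nuclease and sequenced on an Illumina HiSeq instrument. Each sample has a table, deposited by the authors, of raw counts of reads for every Ensembl gene. The submitters' processing notes name CASAVA 1.8, TopHat 1.4.1, Bowtie 0.12.7 and hg19, and the counting program and annotation release are not given in the sources used here. The nuclease step lowers abundant transcripts, so levels between genes are compressed by an unknown amount. Whether it also altered the fold changes of abundant transcripts was not tested. The tables list 42224 genes, 41467 in the 501Mel shSCR2 and shMITF samples and 34033 in Hermes 3A shMITF, and a gene entered a fit only where all its samples list it. Some comparisons, such as Hermes 3A shMITF against shSCR or shBRG1 and shSCR2 against shSCR1, thus join tables of unlike length. What made the tables differ is not given in the sources used here, and its part in the results was not tested.

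Groups came from the sample labels. Each comparison was fitted with edgeR 4.0.16 (R 4.3.3; filterByExpr, TMM, robust quasi-likelihood fit and F test) on its own groups, and p-values were adjusted by Benjamini-Hochberg over all genes tested. Called genes had an adjusted p below 0.05 together with a log2 change beyond 1 in size, the thresholds of the study. The SE was taken as the size of the log2 change over the root of its F statistic, and intervals are 95% intervals on the degrees of freedom of the test. Levels were scaled over all 19 libraries, and their log2 ratios differ from fitted values by at most 0.07. Lengths and positions are from GENCODE 29.

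The members, lists and rules were chosen with earlier results of these data known. The text names all 10 members, SMARCA4, MITF, SMARCA2, CHD5 and CHD1L, and of each partner list the genes called and the 2 largest changes in each direction among those past an adjusted p of 0.05. On simulated counts with 200 genes changed by a log2 value of 2, the edgeR script recovered 200 of them in 9 of the 10 comparisons and 199 in the other. This check covers changes of that size only. It does not measure the power to detect smaller changes, such as those of the members that did not pass. Nothing on the power of the melanocyte shMITF comparison, whose replicates differed most, follows from it. Alternatives were DESeq2 1.42.0, library sizes alone, other filters, a replicate block, leaving out each replicate, other control groups and another gene length.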

Additional observations from a re-analysis of the deposited data

Results flagged for a closer look

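The effect of shBRG1 differed between 501Mel and Hermes 3A for each of the 10 members by the test of that difference (edgeR, adjusted over 21697 genes), and in each the value in 501Mel was the lower. The differences, as the log2 effect in 501Mel minus that in Hermes 3A, were -0.38 for CHD1, -0.17 for CHD2, -1.09 for CHD3, -1.22 for CHD4, -1.46 for CHD6, -0.40 for CHD7, -0.27 for CHD8, -1.05 for CHD9, -1.78 for SMARCA1 and -0.84 for SMARCA5. The SMARCA4 effect differed by -0.01, and the MITF effect by -1.15, whose part in the members' differences was not tested. DESeq2 passed 9 of the 10, without CHD2, and with library sizes alone 6 passed, CHD2 read 0.11 and CHD8 0.01. No group of this series holds 4 or more samples, so single libraries were not tested as outliers.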

How the results depend on the processing

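Of 440 values of single members under alternatives other than leaving out a replicate, 379 kept their direction and their side of the threshold, and of 450 with a replicate left out 429 did. These counts and the turned signs listed below leave out shBRG1 minus shMITF in 501Mel, the line difference of shMITF and Hermes 3A shBRG1 against shMITF. For shBRG1 minus shMITF, 6 members read below 0 as reported, 5 with library sizes alone and 7 without a filter. For Hermes 3A shBRG1 against shMITF, 4 read below 0 as reported, and 3 to 6 with 1 library left out. For the line difference of shMITF these counts were 10, and 9 or 10. With library sizes alone, which raise the shBRG1 libraries of 501Mel, signs turned for CHD2 (0.046) and CHD8 (0.17) after shBRG1 and CHD2 (0.022) after shMITF in 501Mel, CHD1 (0.066) after shBRG1 and CHD9 (0.049) after shMITF in Hermes 3A, CHD9 (0.19) and SMARCA5 (0.027) between the lines, CHD2 (-0.11) between the scramble groups, and CHD2 (0.11) and CHD8 (0.0051) in the line difference of the shBRG1 effect. Members passing then numbered 1 higher after shBRG1 in 501Mel, 3 higher in Hermes 3A, 2 lower and 5 higher between lines, 6 lower with 2 called in the line difference, and 2 higher for shBRG1 minus shMITF in 501Mel. With at least 10 counts in every sample CHD9 (0.015) between lines, CHD2 (-0.077) between scramble groups and CHD2 (0.025) in the line difference turned, 3 members were called there, and 2 were higher for shBRG1 minus shMITF. DESeq2 turned CHD6 between scramble groups (0.0074). Hermes 3A shMITF had 1 member lower with DESeq2, without a filter and with all groups in 1 fit, the last of which gave 9 lower after shMITF in 501Mel and 1 lower and 0 higher after shBRG1 in Hermes 3A.

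The control mattered for 501Mel. Against the pooled scramble groups shMITF gave 0 called and 1 lower, with SMARCA5 at 0.14, and against shSCR1 0 called and 1 higher, with SMARCA1 at 0.10 and SMARCA5 at 0.46. shBRG1 against shSCR2 gave 7 called, where 11200 of all 21475 genes were. shSCR2 against Hermes 3A gave 6 higher, where 6846 of all 18610 genes were, with CHD9 at 0.57 and SMARCA5 at 0.46. The shSCR1 control for shMITF and the shSCR2 control for shBRG1 were chosen after seeing the data.

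Leaving out 1 library at a time moved the counts called from 3 to 5 (line difference of shBRG1), 0 to 2 (line difference of shMITF, with 0 to 2 lower) and 1 to 4 (shBRG1 minus shMITF in 501Mel), and the counts lower from 0 to 1 (Hermes 3A shMITF) and 0 to 3 (Hermes 3A shBRG1 against shMITF). Signs turned within these ranges: CHD2 -0.22 to 0.040 after shMITF in 501Mel, SMARCA5 -0.0082 to 0.065 and CHD1 -0.071 to 0.0066 after shBRG1 in Hermes 3A, CHD4 -0.32 to 0.0038 and CHD9 -0.30 to 0.17 after shMITF in Hermes 3A, CHD1 -0.021 to 0.068 between lines, and CHD2 -0.023 to 0.12, CHD3 -0.071 to 0.076 and CHD6 -0.10 to 0.12 between scramble groups. The cause of these shifts was not tested.

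Deviations from group means correlated little between samples with the same replicate number (mean r of 0.007, 0.104, 0.038 and -0.029 in the 4 knockdown comparisons). In 501Mel shMITF, with 2 libraries per group, different numbers gave -0.104, the same value with its sign turned. Whether replicates were paired cannot be told from these values, because deviations within such small groups are tied to each other. With the replicate block 4 members were called after shBRG1 in 501Mel, CHD4 passed after shMITF (-0.40, adjusted p = 0.0471), which made 6 lower, and CHD8 was lost between the scramble groups, which left 6 higher. The summed level per kilobase of 501Mel shSCR1 read 130.3 with library sizes and 192.7 with the longest transcript, and that of Hermes 3A shSCR 147.9 and 244.5.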
